A study of Mus musculus with 15 samples.

Results

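The 10 genes described here mark the endothelium, the single layer of cells that lines blood vessels: Pecam1, Cdh5, Emcn, Cldn5, Vwf, Kdr, Flt1, Tek, Tie1 and Eng. They were chosen by symbol, with no measured value in the rule, though earlier results of these data were already known. The rule takes the rows of the deposited table whose Entrez gene ID carries any of these names. All 10 were found among the 23510 gene IDs of the table. RNA was sequenced from whole testes of ICR mice, an outbred stock, in 15 libraries, with 3 in each of 5 groups. Con testes are controls for which the labels name no virus. M1, M3 and M5 testes received lentivirus carrying 3 mixed short hairpin RNAs (shRNAs) against the muscarinic acetylcholine receptor M1, M3 or M5. MNC testes received the lentivirus vector control, for which the study's methods list a control shRNA (shNC) in the same virus, so it is not described as an empty vector. Per the study's methods, the virus was injected into the testes of mice aged 5 weeks, and testes were collected 10 days later. Every group but Con therefore shares the injected vector, and no label or method used here limits the knockdown to a cell type. The titles and sources of the samples name testis, while their extraction text speaks of sperm. The labels do not say that the 3 libraries of a group came from separate animals, so p-values measure only the spread between these libraries.

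Endothelial cells hold together through adhesion and junction proteins, respond to vascular endothelial growth factor (VEGF) through the receptors Kdr and Flt1, and receive angiopoietin signals through Tek. In the testis the blood vessels run in the interstitium, among the Leydig cells and outside the seminiferous tubules, so the germ cells that make up most of the tissue have no vessels between them. Some of the 10 genes are not exclusive to endothelium: Pecam1 and Vwf are also made by platelets and their precursors, Pecam1 by leukocytes, and Cldn5 has been described in the seminiferous epithelium. In whole tissue, fewer endothelial cells and less RNA per endothelial cell cannot be told apart.

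Values are FPKM, the fragments of a gene per unit of its length and of the library's mapped total, so levels can be set side by side between genes. All 10 genes were above 0 in every library, at 0.33 to 8.09 FPKM, while the median of the mean levels was 8.84 FPKM over the 14514 genes tested, those with a mean of 1 FPKM or more. The label of the genes as vessel markers therefore rests on low but measured levels of each defining gene. Summed over the 10 genes, the level was 21.6 to 23.2 FPKM in Con, 20.4 to 25.4 in MNC, 19.5 to 21.7 in M1, 17.8 to 20.6 in M3 and 21.2 to 30.0 in M5. The M5 range was widened by replicate 3, the library with the highest sum of all.

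Some facts of the whole series touch what follows. The targeted receptor genes were near the lower end of detection in all 15 libraries, with Chrm1 at 0.06 to 0.17 FPKM, Chrm3 at 0.01 to 0.11 and Chrm5 at 0.19 to 0.43, and each overlapped between its own knockdown group and MNC, so the targets do not check the labels. M3 replicate 3 shared features of the M5 libraries. Tmem89 was listed at 0 in M3 replicate 3 and in all 3 M5 libraries but was at 26.4 FPKM or more in the other 11 libraries, and H2ac23 was at 19.1 FPKM or more in the same 4 libraries and listed at 0 in the other 11. Some of the differences that involve M3 or M5 are therefore also given without replicate 3 of that group.

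The order of the genes by mean level was Cldn5, Eng, Vwf, Flt1, Kdr, Cdh5, Pecam1, Tek, Emcn and Tie1, from 4.95 to 0.709 FPKM over the 15 libraries. Cldn5 was above Eng in 14 of 15 libraries, and Cdh5 was above Pecam1 in all 15. Vwf and Flt1, at 2.78 and 2.77 FPKM, were not separated, with Vwf higher in 10 of 15. Pecam1 and Tek, and Tek and Emcn, were each in the stated order in only 9 of 15 libraries. Groups were ordered by mean within each gene too, and of the 40 pairs of neighbouring groups 1, M1 above M3 for Eng, did not overlap. limma called 0 of the 32 pairs it could test at an adjusted p under 0.05. Neighbours in such an order are the groups with the closest means, so overlap is favoured by the choice of pairs. The share over all genes tested was not counted for such pairs, so these counts say nothing particular to the 10 genes.

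**Figure D1:**
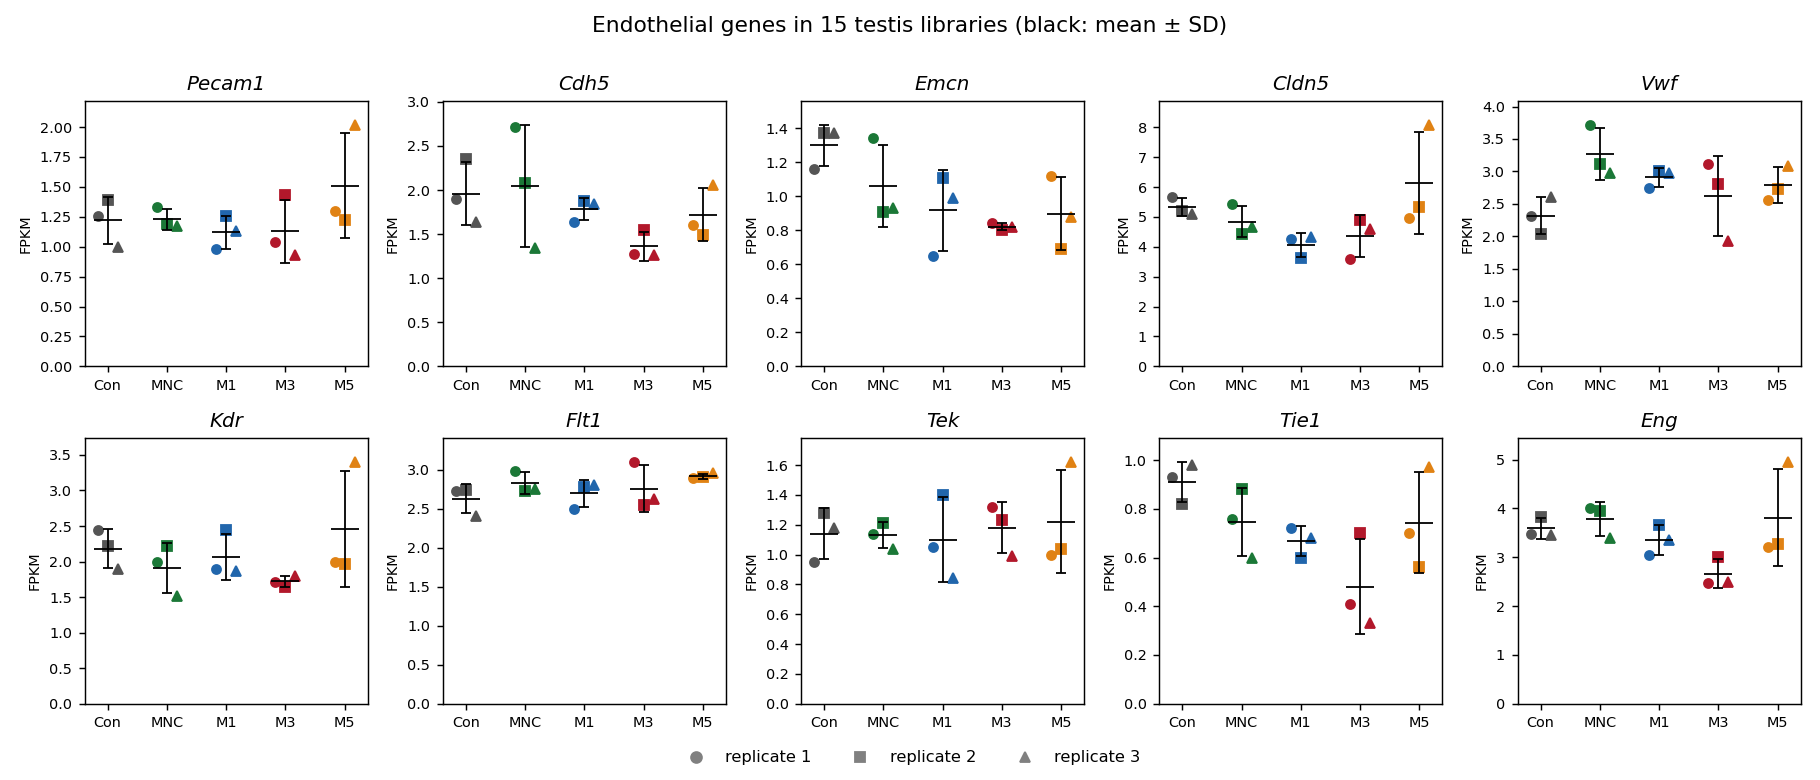
FPKM of each endothelial gene (y axis, starting at 0, with a scale of its own for each gene) in the 5 groups (x axis), with one symbol per library and black bars for the mean ± SD of 3 libraries. M5 replicate 3 is the highest of the 15 libraries for Pecam1, Kdr, Tek, Eng and Cldn5, and the 3 M3 libraries lie below all 3 Con libraries for Cdh5, Emcn, Kdr, Tie1, Eng and Cldn5.

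Of 80 tests, 8 genes in each of 10 comparisons between groups, limma called 2 at an adjusted p under 0.05 (Benjamini-Hochberg over all genes tested). Both were lower in a knockdown group than in Con: Cldn5 in M1 and Eng in M3. Emcn and Tie1 have mean levels of 0.999 and 0.709 FPKM, below the filter of 1, and were compared by two-sided exact permutation tests, in which 3 against 3 libraries cannot go below 0.1. Comparisons that share the Con or the MNC libraries are not independent of each other. Differences below are of log2(FPKM + 1), a scale that understates the change of genes with such low values.

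The upstream sequences of the 2 called genes and of Tie1, which lay below the Con range in the same 2 groups, are shown because ETS transcription factors, known regulators of endothelial genes, bind the core GGAA. Emcn also lay below the Con range in these 2 groups, and in M5 too, but its sequence is not shown. RefSeq promoter sequences (GRCm38.p6, the assembly also known as mm10, which the labels name) matched 7 of the 10 genes, all but Pecam1, Cdh5 and Vwf, and the 250 bases before each start were searched. The gene of Eng lies at chr2:32646595-32682669, that of Cldn5 at chr16:18776847-18778262 and that of Tie1 at chr4:118471191-118489849. Capitals mark AGGAAG or its reverse complement CTTCCT. The windows, each ending just before the gene's first base, are chr2:32646345-32646594 on the plus strand (Eng), chr16:18776597-18776846 on the plus strand (Cldn5) and chr4:118489850-118490099 on the minus strand (Tie1).
Eng: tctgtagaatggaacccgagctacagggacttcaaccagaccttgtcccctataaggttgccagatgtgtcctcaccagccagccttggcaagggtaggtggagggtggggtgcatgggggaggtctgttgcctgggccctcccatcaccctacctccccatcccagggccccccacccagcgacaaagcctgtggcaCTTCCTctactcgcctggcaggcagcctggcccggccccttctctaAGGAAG
Cldn5: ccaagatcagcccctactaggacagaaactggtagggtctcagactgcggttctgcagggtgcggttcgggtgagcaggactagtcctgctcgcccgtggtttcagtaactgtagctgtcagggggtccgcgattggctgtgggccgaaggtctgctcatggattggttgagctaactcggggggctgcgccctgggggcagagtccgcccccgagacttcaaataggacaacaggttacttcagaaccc
Tie1: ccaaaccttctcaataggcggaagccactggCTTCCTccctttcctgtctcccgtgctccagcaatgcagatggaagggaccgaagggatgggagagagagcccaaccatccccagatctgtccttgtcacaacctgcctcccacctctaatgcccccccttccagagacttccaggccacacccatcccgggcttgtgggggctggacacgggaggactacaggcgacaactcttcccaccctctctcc
The motif AGGAAG, counted on both strands, occurred in 4 of the 7 windows (Eng, Emcn, Tie1 and Flt1) and in 29.5% of 32851 windows of the same length, and CCGGAA with its reverse complement TTCCGG in 1 of 7 (Kdr) and 12% of all. Eng held AGGAAG 2 times, Tie1 held it 1 time and Cldn5 held neither motif in this window. A match describes the letters only and does not show that a factor binds there.

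Among the adhesion and junction genes, Cldn5, which encodes the tight junction protein claudin-5, had the highest level. Cldn5 was at 5.68, 5.20 and 5.11 FPKM in Con, 5.42, 4.42 and 4.67 in MNC, 4.27, 3.61 and 4.34 in M1, 3.58, 4.89 and 4.61 in M3, and 4.96, 5.34 and 8.09 in M5. All M1 and M3 libraries lay below all Con libraries, while MNC overlapped both Con and M3. Against Con, Cldn5 fell by 0.32 in M1 on the log2 scale (SE 0.081, 95% interval -0.52 to -0.13, limma adjusted p = 0.028). The median of all genes tested moved by -0.12 in the same comparison, and with each library centred on its median Cldn5 differed by -0.20 (limma adjusted p = 0.158). The call was also lost when any one of Con replicate 1, Con replicate 2 or the 3 M1 libraries was left out, with limma adjusted p from 0.0516 to 0.0929. In M3 against Con the difference of Cldn5 was -0.25 (95% interval -0.51 to 0.02, limma adjusted p = 0.136).

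Cdh5 encodes VE-cadherin, the cadherin of endothelial adherens junctions. Cdh5 was at 1.90, 2.35 and 1.64 FPKM in Con, 2.72, 2.08 and 1.34 in MNC, 1.64, 1.87 and 1.84 in M1, 1.27, 1.55 and 1.26 in M3, and 1.60, 1.49 and 2.06 in M5. The M3 libraries were below every Con and every M1 library but not below MNC, whose replicates ranged widely. The difference of M3 from Con was -0.32 (SE 0.117, 95% interval -0.60 to -0.04) and did not pass (limma adjusted p = 0.0838). Emcn, a sialomucin of venous and capillary endothelium, was at 1.16, 1.37 and 1.37 FPKM in Con and at 0.84, 0.80 and 0.82 in M3, and at most at 1.12 in any M1 or M5 library. Each of M1, M3 and M5 lay below all Con libraries, with differences of -0.27, -0.34 and -0.28 and an exact permutation p of 0.1 each, the smallest possible, while MNC overlapped Con. Pecam1, an adhesion molecule of endothelial contacts, was at 1.00 to 1.39 FPKM in Con, and every other group overlapped that range.

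Vwf encodes von Willebrand factor, the clotting protein stored in endothelial cells and platelets. Its levels were 2.32, 2.04 and 2.60 FPKM in Con, 3.72, 3.11 and 2.97 in MNC, 2.74, 3.00 and 2.98 in M1, 3.11, 2.81 and 1.93 in M3, and 2.56, 2.73 and 3.09 in M5. Every MNC and every M1 library was above every Con library, which made Vwf the one of the 10 genes with a higher level in MNC than in Con throughout. The difference of MNC from Con was 0.36 (SE 0.106, 95% interval 0.11 to 0.62, limma adjusted p = 0.0572), and it passed after centring (0.45, limma adjusted p = 0.0442) and after removal of the trend with GC content (0.42, limma adjusted p = 0.0472). In M1 against Con it was 0.24 (95% interval 0.03 to 0.44, limma adjusted p = 0.0709). Of 5 platelet genes in the table, 4 were below a mean of 1 FPKM. The summed level of all 5 was 2.99 to 3.71 FPKM in MNC and 3.64 to 5.72 in Con. Most of it came from Pf4, at 2.03 to 2.64 in MNC and 2.78 to 4.65 in Con, so the sum rests largely on a single gene. The part of platelets in the levels of Vwf was not tested.

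Among the receptors, Kdr, the main signalling receptor for VEGF, was at 2.44, 2.22 and 1.89 FPKM in Con, 1.99, 2.22 and 1.52 in MNC, 1.90, 2.44 and 1.86 in M1, 1.71, 1.64 and 1.80 in M3, and 2.00, 1.97 and 3.40 in M5. The M3 libraries lay close together and below all Con, M1 and M5 libraries, but inside the MNC range. The difference of M3 from Con was -0.23 (95% interval -0.45 to 0.003, limma adjusted p = 0.119). Flt1, the VEGF receptor that binds the ligand tightly and signals weakly, varied least: its 15 values ran from 2.41 to 3.10 FPKM, and its highest group mean was 1.11 times its lowest. The 3 M5 libraries, at 2.90, 2.91 and 2.96, were above all Con libraries by 0.12 (95% interval -0.11 to 0.34, limma adjusted p = 0.417).

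Tek, the receptor for angiopoietins, also had a highest group mean of 1.11 times its lowest, and no 2 groups were apart for it. Tie1, the partner receptor of Tek, was at 0.93, 0.82 and 0.98 FPKM in Con, 0.76, 0.88 and 0.60 in MNC, 0.72, 0.60 and 0.68 in M1, 0.41, 0.70 and 0.33 in M3, and 0.70, 0.56 and 0.97 in M5. All M1 and M3 libraries were below Con, at 0.733 and 0.527 times its mean, with an exact permutation p of 0.1 in each. Tie1 had the widest spread of group means of the 10 genes, 1.9 times from M3 to Con.

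Eng encodes endoglin, a co-receptor for ligands of the bone morphogenetic protein and transforming growth factor beta families. Eng was at 3.48, 3.83 and 3.46 FPKM in Con, 4.01, 3.95 and 3.39 in MNC, 3.05, 3.65 and 3.35 in M1, 2.48, 3.01 and 2.50 in M3, and 3.20, 3.28 and 4.95 in M5. The 3 M3 libraries were below every library of the other 4 groups. Against Con, Eng fell by 0.33 in M3 on the log2 scale (SE 0.091, 95% interval -0.54 to -0.11, limma adjusted p = 0.0462), against a shift of -0.13 in the median of all genes tested. With each library centred the difference was -0.17 (limma adjusted p = 0.164), without M3 replicate 3 it was -0.30 (limma adjusted p = 0.0858), and leaving out M3 replicate 1 or any 1 Con library also ended the call. Against MNC, the control with the same vector, Eng differed by -0.39 in M3 (SE 0.104, 95% interval -0.64 to -0.14), with a limma adjusted p of 0.518. An exon of Fpgs lies across Eng on the opposite strand, and whether the libraries keep strand is not given in the sources used here, so reads from that overlap cannot be told apart. Fpgs itself was at 9.10 FPKM in M3 and 9.66 in Con (limma adjusted p = 0.596).

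**Figure D2:**
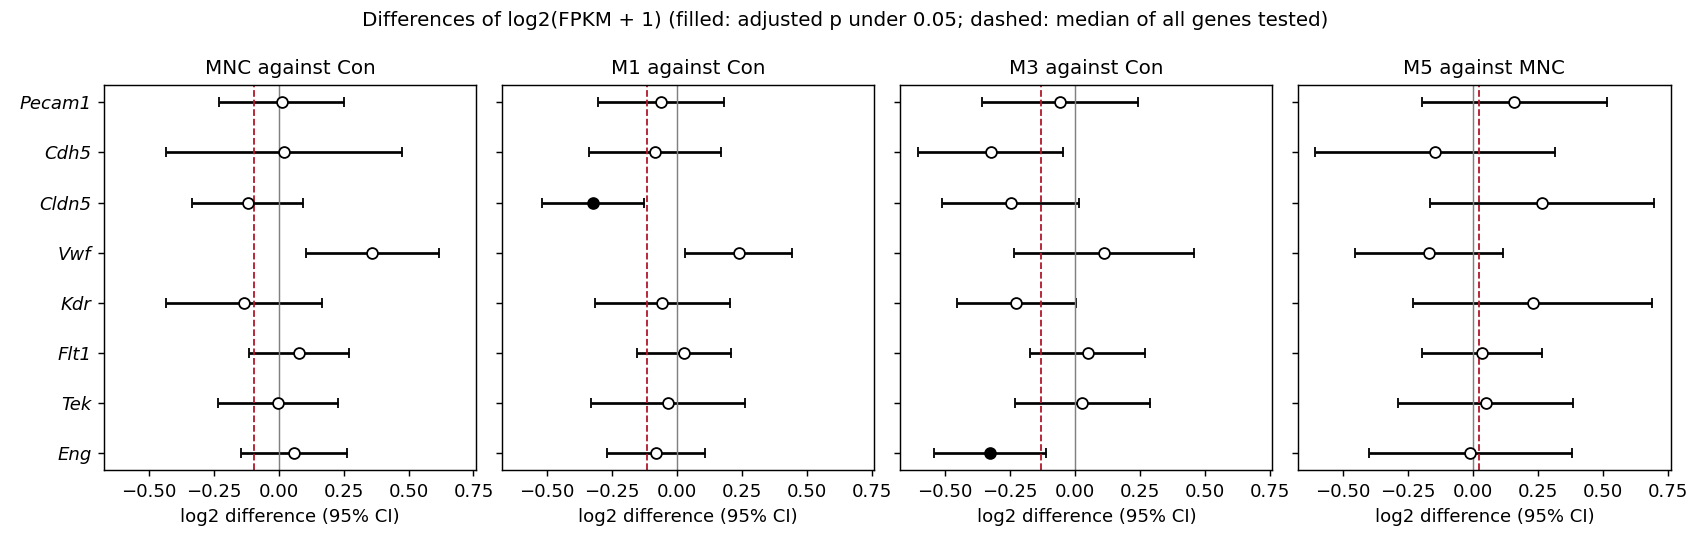
Differences of log2(FPKM + 1) between groups (x axis) for the 8 genes tested by limma (y axis), with 95% intervals, in 4 of the 10 comparisons. Filled points mark the 2 calls, Cldn5 in M1 and Eng in M3 against Con, and the dashed line marks the median of all genes tested, which lies at -0.12 and -0.13 in those comparisons.

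The counts stand against the background of each comparison with Con. In M1 against Con, 1 of the 8 genes was called, where 34.2% of all genes tested were called and 23.9% called lower. In M3 against Con it was 1 of 8, where 22.1% were called and 15.1% called lower. In MNC and M5 against Con limma called 0 of 8 at backgrounds of 20.4% and 21.7%. At an unadjusted p under 0.05 stood 1 of the 8 genes in MNC, 2 in M1, 2 in M3 and 0 in M5, beside 40.1%, 48.7%, 43.2% and 36.3% of all genes tested. Counted by groups that do not overlap, 1 of the 8 genes was higher in MNC (15% of all genes tested), 1 higher and 1 lower in M1 (15.1% and 38.6%), 4 lower in M3 (36.6%) and 1 higher in M5 (17.9%). Emcn and Tie1, below the filter, are not in these counts. Both were lower than Con without overlap in M1 and M3, and Emcn was so in M5 too. The median difference of the 8 genes was 0.02, -0.06, -0.14 and 0.11 in MNC, M1, M3 and M5 against Con, beside medians of -0.10, -0.12, -0.13 and -0.04 over all genes tested. With each library centred on its median, the 8 genes had medians of 0.11, 0.07, 0.01 and 0.16, so the sign of the median in M1 and M3 turned with the scaling. In each of these comparisons the share of the 8 genes called was below that of all genes tested, but the background itself was unstable: without Con replicate 1, 0.0551% of all genes were called in MNC against Con and 0% in M3 against Con. With no filter, 1 of 10 genes was called in M3 against Con at a background of 7.08%.

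Against MNC, the control that carries the vector, none of the 8 genes was called by limma in any knockdown group. The background was 0% for M1, 0.00689% for M3 and 5.65% for M5. The number of the 8 genes at an unadjusted p under 0.05 was 0, 1 and 0, beside 5.94%, 9.43% and 24.9% of all genes tested, and Eng in M3 was the 1 gene. Cldn5 in M1, Eng in M3 and Emcn in M3 were below every MNC library, so 1 of the 8 genes tested stood apart in M1 and 1 in M3, where 6.97% and 10.6% of all genes tested were lower in the same way. The median difference of the 8 genes was -0.09 in M1, -0.11 in M3 and 0.04 in M5, beside -0.02, -0.04 and 0.03 over all genes tested.

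M5 against MNC compared testes given the M5 shRNAs with those given the vector control, and the intervals were wide. The differences ran from -0.17 for Vwf (95% interval -0.45 to 0.12) to 0.27 for Cldn5 (-0.16 to 0.70), with Kdr at 0.23 (-0.23 to 0.69), Pecam1 at 0.16 (-0.20 to 0.52) and Cdh5 at -0.15 (-0.61 to 0.32). Those of Flt1, Tek and Eng were 0.04, 0.05 and -0.01. limma adjusted p-values ran from 0.409 to 0.982, and all 10 genes overlapped between the groups, whereas 16.6% of all genes tested were higher and 15.5% lower with no overlap. Without M5 replicate 3, the differences of Cldn5, Kdr and Pecam1 were 0.08, 0.04 and 0.02, that of Tek was -0.08, and again 0 genes were called. These data therefore set bounds and do not show that M5 and MNC had equal levels.

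Between the knockdown groups, limma called 0 of the 8 genes in M5 against M1 (background 6.75%), in M5 against M3 (0.0138%) and in M3 against M1 (0%). At an unadjusted p under 0.05 stood 1, 0 and 2 of them, beside 25.4%, 14.3% and 4.63% of all genes tested. Groups did not overlap for 2 genes higher in M5 than in M1 (18.8% of all genes tested), 3 higher in M5 than in M3 (14.4%) and 3 lower in M3 than in M1 (6.28%). All 8 genes had a higher mean in M5 than in M3, as 61.3% of all genes tested did, with medians of 0.22 for the 8 genes and 0.06 for all. Kdr, Eng and Cldn5 did not overlap between these groups, with differences of 0.32, 0.38 and 0.39 and limma adjusted p-values of 0.351 to 0.406. Without M5 replicate 3 these differences were 0.14, 0.21 and 0.21, with limma adjusted p-values of 0.467 to 0.542. Without that library the median was 0.10 with 7 of 8 genes higher in M5, without M3 replicate 3 it was 0.17 with 6 of 8, and after centring on library medians 5 of 8 were higher. In M3 against M1, Cdh5, Kdr and Eng were lower in every M3 library, by 0.24, 0.17 and 0.25, with a limma adjusted p of 0.899 each. Cldn5 was higher in every M5 than in every M1 library, by 0.47 (95% interval 0.05 to 0.89, limma adjusted p = 0.158), and without M5 replicate 3 by 0.28 (limma adjusted p = 0.114).

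Single libraries set much of the spread. M5 replicate 3 was the highest of the 15 libraries for Pecam1, Kdr, Tek, Eng and Cldn5, at 1.53 to 1.71 times the mean of the other M5 libraries, while Flt1 differed little there. M3 replicate 3 was the lowest for Pecam1, Cdh5, Tie1 and Vwf. In M5 replicate 3 the mean deviation of the 8 genes from their 15-library mean was 0.34 on the log2 scale, the highest of all libraries. Other cell types moved in the same library: the deviation was 1.07 for 8 macrophage markers, 2.71 for 5 red blood cell genes, 0.87 for 8 Leydig cell markers, 0.48 for 10 Sertoli cell markers and 1.12 for 7 interferon response genes, each the highest of the 15. That of 6 elongating spermatid markers was -0.15, the 12th of 15. The part of these cell types in the endothelial levels was not tested.

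**Figure D3:**
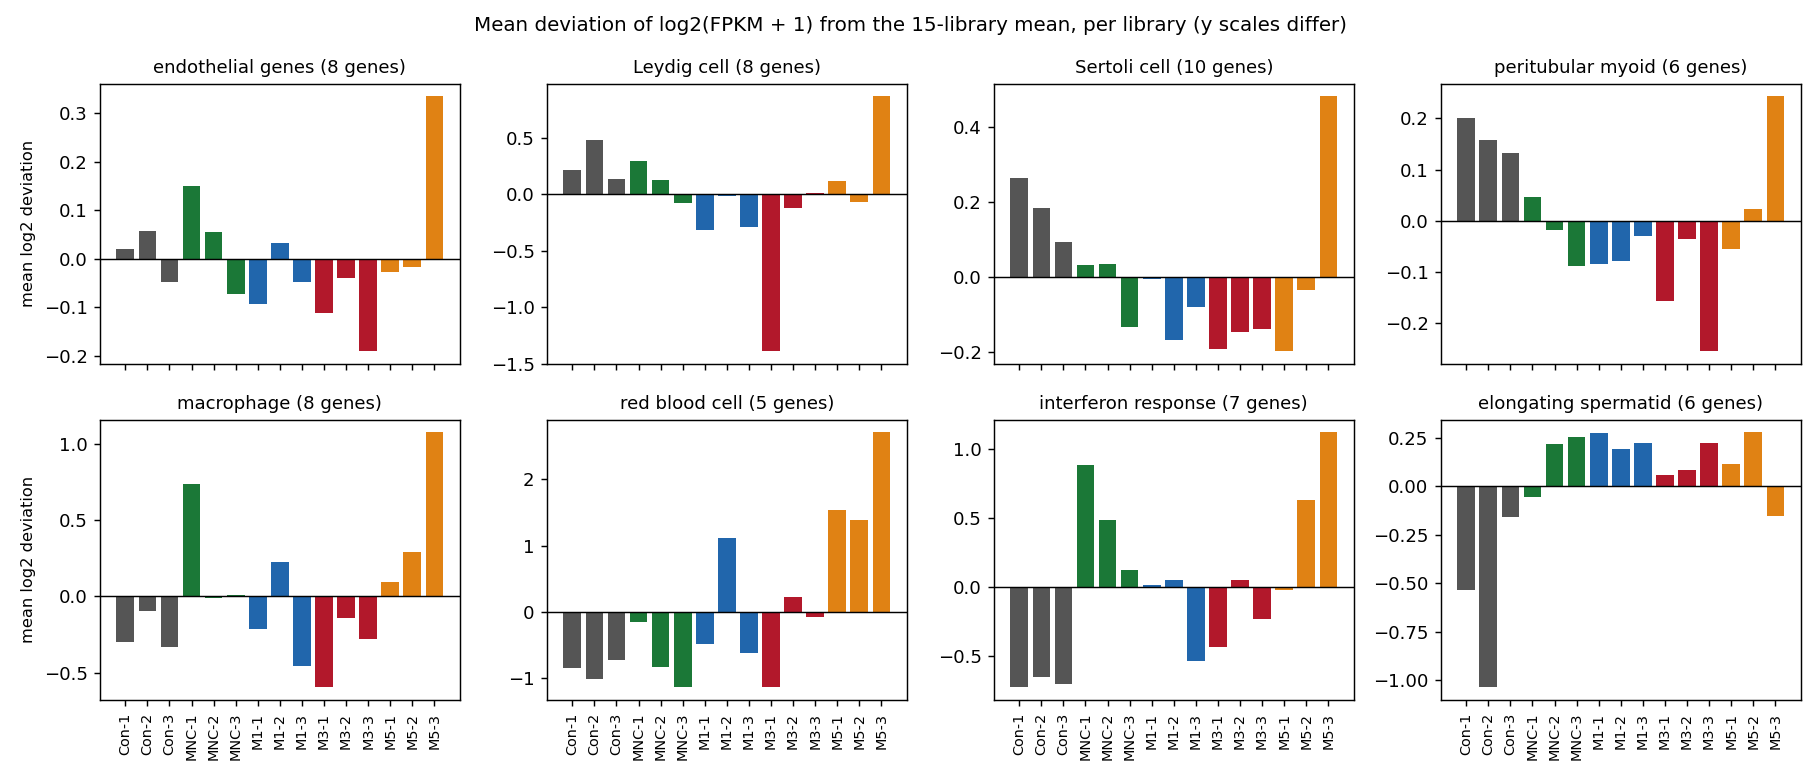
Mean deviation of log2(FPKM + 1) from the mean of all libraries (y axis, with a scale of its own in each panel) in each of the 15 libraries (x axis, coloured by group) for the 8 endothelial genes tested and for markers of other cell types. M5 replicate 3 has the highest bar in each panel except that of the elongating spermatid markers.

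Markers of other cell types were also called in the comparisons where endothelial genes were called. In M1 against Con, limma called 6 of 10 Sertoli cell markers lower and 0 higher, and 2 of 8 Leydig cell markers lower. In M3 against Con these were 5 of 10 and 2 of 8. Of all genes tested, 23.9% were called lower in M1 and 15.1% in M3. Spermatocyte markers were called lower for 7 of 7 in M1 and 1 of 7 in M3. Of 6 peritubular myoid markers, 3 were called lower and 1 higher in each group. Of 6 round spermatid markers, 5 were called higher in M1 and 4 in M3, and 0 lower. The summed level of the Sertoli cell markers was 223 to 258 FPKM in Con, 198 to 223 in M1 and 192 to 206 in M3. That of 8 Leydig cell markers was 1560 to 2020 FPKM in Con, 1380 to 1610 in M1 and 665 to 1800 in M3. The elongating spermatid markers summed to 10100 to 20000 FPKM in Con and to 20500 or more in every library of the other groups. None of the Leydig or Sertoli cell markers was listed at 0 throughout. Whether these differences had a part in those of Cldn5 and Eng was not tested.

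The 8 genes moved together only in part. Over the 28 pairs of genes, the median Pearson r across the 15 libraries was 0.388, with 27 pairs above 0, and 0.104 over 13 libraries when M5 replicate 3 and M3 replicate 3, the 2 farthest from the median, were left out. The points share their libraries and their scaling, so these values are a description. The named genes whose pattern across the 15 libraries was most like the mean of the 8 were Gltp, Septin8, Adar, Unc13d, Stx4a, P2rx4, Zfp36l2, Tmem50a, Tmem229b and Lrrk1, with Pearson r of 0.929 to 0.959 and Spearman rho of 0.811 to 0.943. Without the 2 farthest libraries their r was 0.737 to 0.886. None of these 10 is on the lists of endothelial genes used here, and the closest listed one was Cd34, an antigen of endothelium and blood stem cells, at an r of 0.887 and rank 55 of 13605 named genes.

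Other genes of vessel biology were followed as lists. The 7 lists of VEGF and angiopoietin ligands, VEGF co-receptors, endothelial transcription factors, Notch and arterial genes, surface and junction genes, endoglin and BMP signalling genes, and leukocyte adhesion molecules hold 45 genes tested. limma called 6 of them in MNC against Con, 7 in M1, 8 in M3 and 2 in M5 against Con, or 13.3%, 15.6%, 17.8% and 4.44% of the 45, beside 20.4%, 34.2%, 22.1% and 21.7% of all genes tested. In each of the other 6 comparisons it called 0, where 0% to 6.75% of all genes tested were called. At an unadjusted p under 0.05 stood 3, 5 and 7 of the 45 in M1, M3 and M5 against MNC, beside 5.94%, 9.43% and 24.9% of all genes tested. In M5 against M1, M5 against M3 and M3 against M1 these were 5, 8 and 0, beside 25.4%, 14.3% and 4.63%. Pericytes, the cells that wrap capillaries, could hardly be followed, since 7 of their 8 markers were below a mean of 1 FPKM.

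Vegfa, the main VEGF ligand, which Sertoli and Leydig cells also make, was at 3.65, 3.77 and 3.29 FPKM in Con, 2.60, 2.72 and 2.25 in MNC, 2.40, 2.75 and 2.33 in M1, and 2.43, 2.46 and 1.63 in M3. It was lower than every Con library in all 9 of these injected testes. Vegfa fell by 0.38 in MNC, 0.39 in M1 and 0.54 in M3 against Con (limma adjusted p = 0.0354, 0.0173 and 0.0348), and these calls were lost in 10, 5 and 7 of 12 alternative fits each. In M5 it was at 2.06, 2.36 and 3.58, overlapping Con through replicate 3. It was the one of 5 ligand genes tested to be called.

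The Notch ligands Jag1 and Jag2 moved in opposite directions from Con in all injected groups, the vector control MNC among them. Both were called in M1 and M3, only Jag1 in MNC and only Jag2 in M5. Not called were Jag2 in MNC, at 3.16 to 3.21 FPKM, and Jag1 in M5, at 8.03 to 10.5, though neither overlapped Con. Jag1 was at 4.75 to 7.97 FPKM in Con and at 11.3, 11.4 and 14.4 in MNC, and it rose by 0.88 in MNC, 0.86 in M1 and 0.66 in M3 against Con (limma adjusted p = 0.0274, 0.0139 and 0.0382). Jag2 was at 3.63 to 4.10 FPKM in Con and at 1.99 to 2.75 in M5, and it fell by 0.39 in M1, 0.39 in M3 and 0.54 in M5 (limma adjusted p = 0.0151, 0.038 and 0.0238). Sele, the E-selectin of activated endothelium that captures leukocytes, was at 1.04, 1.23 and 1.07 FPKM in Con and at 1.44 or more in every injected testis. Its rise was 0.44 in MNC, 0.41 in M3 and 0.39 in M5 (limma adjusted p = 0.0277, 0.03 and 0.0486). M1, at 1.44 to 1.54 FPKM, did not overlap Con for Sele either but did not pass. In the order given, the calls were lost in 6, 1 and 7 of 12 alternative fits for Jag1, in 1, 9 and 6 for Jag2, and in 6, 5 and 8 for Sele. Without M3 replicate 3, Jag1 and Jag2 in M3 were no longer called (limma adjusted p = 0.0545 and 0.0711).

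The surface genes Mcam and Cd34 were called in the same direction as Cldn5 and Eng. Mcam, an adhesion molecule of vessel walls, was at 4.83 ± 0.157 FPKM (SD, n = 3) in Con and fell by 0.31 in M1 and 0.41 in M3 (limma adjusted p = 0.019 and 0.0357). Cd34 was at 8.85 to 10.5 FPKM in Con and at 6.29, 7.85 and 6.35 in M3, a fall by 0.46 (limma adjusted p = 0.0327). With libraries centred, Mcam was no longer called in either group, nor Cd34 in M3 (limma adjusted p = 0.108, 0.115 and 0.0588). Among BMP signalling genes, the inhibitor Smad6 rose by 0.52 in MNC and 0.41 in M3, the receptor Bmpr2 and the target Id3 fell by 0.27 and 0.34 in M1, and the target Id1 fell by 0.54 in M3 (limma adjusted p = 0.032, 0.034, 0.0385, 0.0444 and 0.0435). Each of these 5 calls was lost in 8 or 10 of 12 alternative fits. Klf4, a transcription factor that germ cells and Sertoli cells also express, rose by 0.30 in MNC (limma adjusted p = 0.0351), and Rgs5, the one pericyte marker tested, fell by 0.49 in M1 and 0.48 in M3 (limma adjusted p = 0.0384 and 0.0349). The Klf4 call was lost in 8 of 12 alternative fits and those of Rgs5 in 8 and 9. Without M3 replicate 3, the M3 calls of Mcam, Cd34, Smad6, Id1 and Rgs5 were each lost, with limma adjusted p from 0.0512 to 0.0838.

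**Figure D4:**
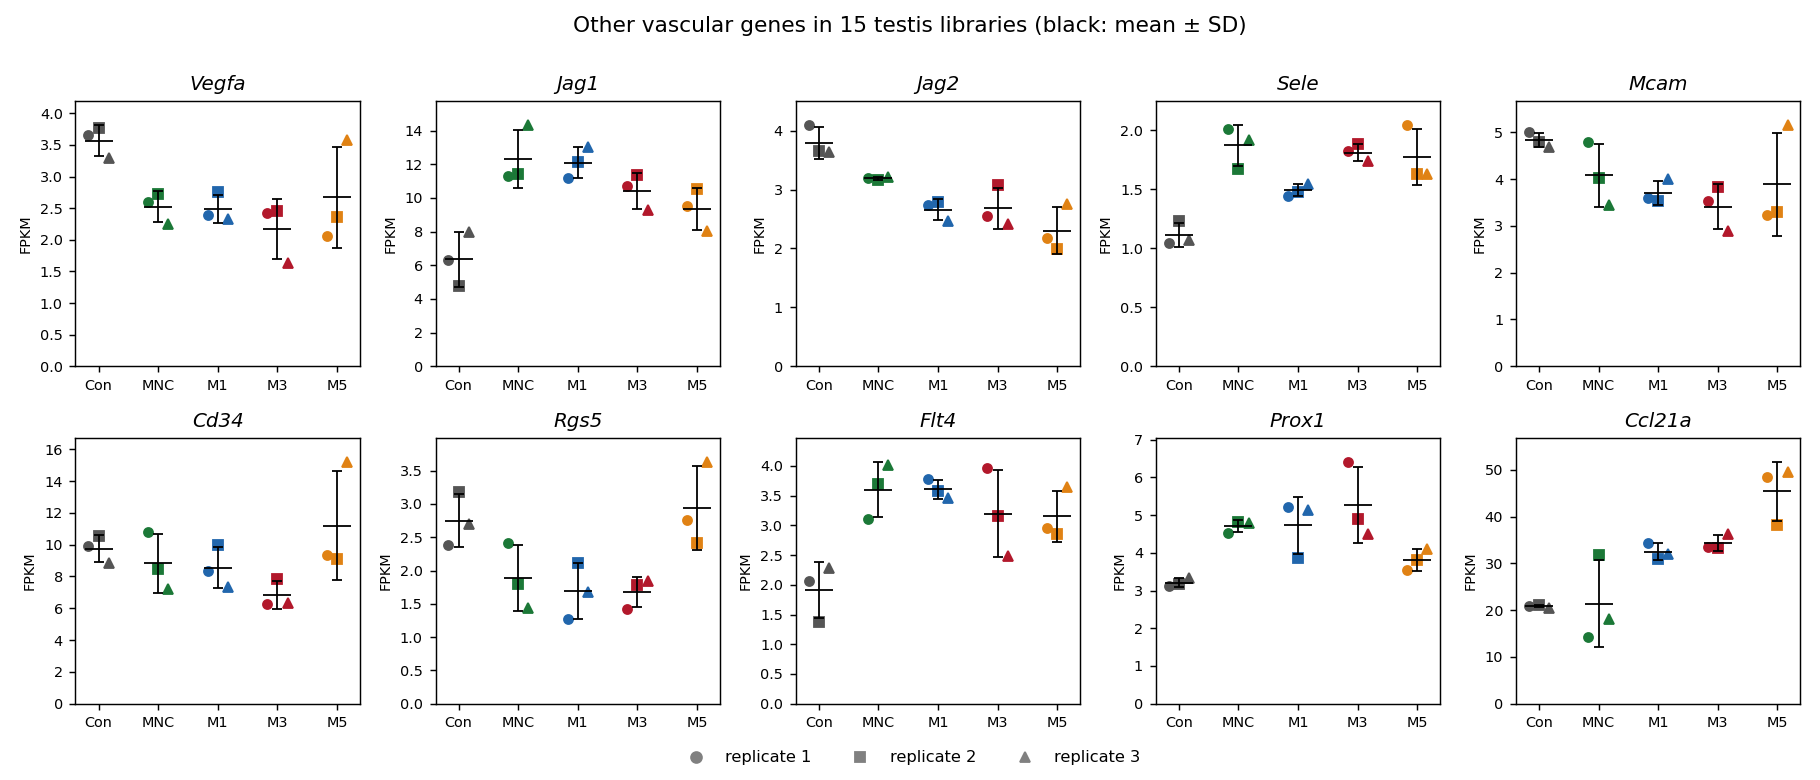
FPKM of other vascular genes (y axis, starting at 0, with a scale of its own for each gene) in the 5 groups (x axis), with one symbol per library and black bars for the mean ± SD of 3 libraries. Con lies apart from MNC, M1 and M3 for Vegfa, Jag1, Jag2, Sele, Flt4 and Prox1, and M5 replicate 3 is the highest of the M5 libraries for every gene shown except Jag1 and Sele.

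Lymphatic vessels carry markers of their own. Of 4 lymphatic markers tested, limma called 2 higher in MNC, 3 in M1, 2 in M3 and 1 in M5 against Con, and 0 lower, beside 20.4%, 34.2%, 22.1% and 21.7% of all genes called in either direction. The fourth, Reln, was at 1.22 to 1.33 FPKM in Con and at 1.17 or less in every injected testis, below all Con libraries, and was not called (limma adjusted p from 0.059 to 0.295). Flt4, the receptor for the lymphatic VEGF ligands, was at 2.07, 1.37 and 2.28 FPKM in Con and 3.10, 3.69 and 4.02 in MNC, and it rose by 0.67 in MNC and 0.68 in M1 (limma adjusted p = 0.0323 and 0.0146). Prox1, the transcription factor that sets lymphatic identity, rose by 0.44 in MNC, 0.44 in M1 and 0.56 in M3 (limma adjusted p = 0.0192, 0.0258 and 0.0315). Ccl21a, a chemokine of lymphatic endothelium with near-identical gene copies whose reads can be split between them, was at 20.6 to 21.2 FPKM in Con and 38.2 to 49.5 in M5. It rose by 0.61, 0.69 and 1.08 in M1, M3 and M5 (limma adjusted p = 0.00542, 0.0238 and 0.00324), while MNC ranged from 14.3 to 31.8. Of the 6 lymphatic markers, Lyve1 and Pdpn were below a mean of 1 FPKM, and Pdpn was listed at 0 in all Con and M1 libraries. Lyve1 had a mean of 0.397 FPKM in Con, and a lower one in MNC, M1 and M3, at 0.25, 0.29 and 0.253. In M5 its mean was higher, at 0.51, and every group overlapped Con. The calls of Flt4 were lost in 6 and 1 of 12 alternative fits, those of Prox1 in 4, 5 and 6, and that of Ccl21a in M3 in 3. No lymphatic marker was called against MNC. Which cells of the whole testis the RNA of Flt4, Prox1 and Ccl21a came from was not tested, and Reln and Lyve1 did not rise with them in MNC, M1 and M3.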

How the data were processed

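The authors deposited 1 table of FPKM values for 15 testis libraries, given to 2 decimals. Their methods name poly(A) selection, an Illumina HiSeq instrument, SOAPaligner, and both RPKM and FPKM, and the submitters' processing notes name mm10 without a role. The annotation is not given in the sources used here. Groups and replicate numbers came from the sample titles, since for M5 replicate 2 the description points to the column of replicate 1. Of 23510 gene IDs, 21143 (89.9%) matched the RefSeq gene table of GRCm38.p6. Low values give a relative depth of 0.921 to 1.03 between libraries, from 10 to 18 genes with steps within 0.15 of whole numbers, but the absolute depth is unknown and no count test or counting interval was possible. Summed FPKM was 470243 to 513817 per library.

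Values were tested as log2(FPKM + 1) with limma 3.58.1 (lmFit, eBayes with trend) in R 4.3.3, in place of the authors' count model. Each fit held the libraries of the 2 groups compared and 14514 genes, those whose FPKM averaged at least 1, with two-sided p-values and Benjamini-Hochberg adjustment over these genes. The limma fit was tried on simulated data for M5 against MNC only, with independent noise for each gene and library and no shift of a whole library. The other steps were not tried on simulated data. Alternatives were a pseudocount of 0.1, no filter, centring on library medians, a replicate block, all 5 groups fitted at once, removal of the GC trend (GC known for 92.1% of the genes tested), and leaving out each library in turn. Of other vessel genes, each comparison names at most 2 called higher and 2 called lower per list whose groups do not overlap. Likeness was ranked by Pearson r with the mean standardised level of the 8 genes tested. The genes, lists and tests were chosen with earlier results of these data known, and Fpgs, Tmem89 and H2ac23 were added after their values were seen. Python 3.11.15, pandas 2.3.3, numpy 2.4.6 and matplotlib 3.10.9 were also used.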

Additional observations from a re-analysis of the deposited data

How the results depend on the processing

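The count of endothelial genes called kept its value in 101 of 120 alternative fits, mostly as a 0 that stayed 0. In several of these comparisons few genes of any kind were called, so a count of 0 could hardly change. The pooled figure therefore says little of the calls of Cldn5 and Eng. In M1 against Con the count went from 1 to 0 with no filter and with all 5 groups in one fit. It ranged from 0 to 2 when one library was left out, with 2 (Cldn5 and Vwf) without Con replicate 3. In M3 against Con it went from 1 to 0 after centring, with all 5 groups in one fit, with the replicate block and after GC removal, and ranged from 0 to 1 when one library was left out. In MNC against Con it went from 0 to 1 (Vwf) after centring and after GC removal. Equal counts did not always hold the same gene: in M1 against Con the 1 gene was Vwf after centring and after GC removal, and in M3 against Con with no filter it was Emcn (limma adjusted p = 0.0423). The call of Cldn5 in M1 had a limma adjusted p of 0.0539 with no filter, 0.132 with all groups and 0.0535 after GC removal, and that of Eng in M3 had 0.0755, 0.0709 and 0.115. The cause was not tested, except that no filter raises the number of genes tested.

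Some small differences in M5 against MNC, none of them called, changed sign. Eng turned to 0.082 after GC removal and ranged from -0.171 to 0.08 when one library was left out, above 0 without M5 replicate 1, M5 replicate 2, MNC replicate 1 or MNC replicate 2. Tek turned to -0.016 after GC removal and ranged from -0.076 (without M5 replicate 3) to 0.119. Cdh5 ranged from -0.323 to 0.011 (without MNC replicate 1), and Flt1 turned to -0.001 after centring. Of the calls of other vascular genes, that of Ccl21a in M1 and in M5 held in all 12 alternatives.

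The replicate numbers did not pair the libraries: deviations from the group means correlated at -0.399 to 0.193 between libraries of the same number, and every pair was above 0.1 in 0 of 10 comparisons. With the replicate number as a block, Eng in M3 against Con had a limma adjusted p of 0.0655, Cldn5 in M1 0.0422, and the count of endothelial genes called changed in no comparison but M3 against Con. Over all genes, the block moved the number called in MNC against Con from 2967 to 10.

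With 3 libraries per group, unknown depth and levels of mostly 1 to 5 FPKM given to 2 decimals, small changes of these genes could not be resolved, and the interval of Cdh5 in M5 against MNC ran from -0.61 to 0.32. The labels name no virus for Con and do not say whether it was injected, so injection and vector cannot be told apart there.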

Other observations

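Calls also occurred among interferon response genes, macrophage markers and red blood cell genes. Of 7 interferon response genes tested, limma called 7 higher in MNC, 3 in M1, 4 in M3 and 6 in M5 against Con, with median differences of 1.08, 0.50, 0.48 and 1.22 on the log2 scale. Of 8 macrophage markers tested, 1, 1, 0 and 4 were called higher in the same order, and 0, 1 (Mrc1), 2 (Mrc1 and Csf1r) and 0 were called lower, with median differences of 0.44, 0.15, -0.05 and 0.72. Over all genes tested, 20.4%, 34.2%, 22.1% and 21.7% were called in either direction in the same order. In MNC the summed level of the list was 78.7 to 150 FPKM against 56.4 to 67.5 in Con. Icam1 and Vcam1, adhesion molecules of endothelium that inflammation raises, were not called in any of the 10 comparisons, while Sele was called in 3. Of 5 red blood cell genes tested, 3 were called higher in M5 against MNC, where 5.65% of all genes tested were called in either direction. Their median difference over the 5 was 3.04, and the summed level of the list was 148 to 491 FPKM in M5 and 22.0 to 35.5 in MNC.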
